A study of Mus musculus with 16 samples.

Results

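The genes described here are the nuclear genes for the subunits of oxidative phosphorylation, the 5 enzyme complexes of the mitochondrial inner membrane that oxidise NADH and succinate and make ATP. They were taken by symbol from the protein-coding genes of the deposited files: the Ndufa, Ndufb, Ndufc, Ndufs and Ndufv genes of complex I without its assembly factors, Sdha to Sdhd of complex II, Cyc1 and the Uqcr genes of complex III, the Cox4i, Cox5, Cox6, Cox7 and Cox8 genes of complex IV, and the Atp5 genes of complex V; 2 genes of the Cox6 and Cox7 families were not analysed here. Of 46517 gene identifiers, 84 were members: 38 in complex I, 4 in complex II, 9 in complex III, 16 in complex IV and 17 in complex V. A further 11 identifiers with such symbols were not protein coding and were left out.

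Complexes I, III and IV pass electrons from NADH to oxygen and pump protons across the inner membrane, complex II feeds in electrons from succinate, and complex V lets protons flow back to make ATP. Complexes I, III, IV and V are mosaics of subunits encoded in the nucleus and in mitochondrial DNA, while complex II is encoded wholly in the nucleus. Most thymocytes at the CD4+CD8+ stage are small cells that are not dividing, and growing or activated lymphocytes are known for higher mitochondrial activity than resting ones.

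RNA came from live CD4+CD8+ thymocytes sorted by flow cytometry from the thymi of 16 mice aged 6 to 7 weeks, with 1 stranded library per mouse. All mice were NOD-AI4, that is, non-obese diabetic mice that carry the AI4 T cell receptor transgene, taken from an autoreactive CD8 T cell clone. The groups were NOD-AI4 controls (6 mice, 3 male and 3 female), NOD-AI4-Nfkbid-/- knockouts (5 mice, 4 male and 1 female) and the NOD-AI4-60A Nfkbid transgenic line (5 mice, 3 male and 2 female). Nfkbid encodes a nuclear regulator of NF-kB, and the title of the series links both its gain and its loss to deletion of AI4 cells in the thymus. The sources used here do not name the promoter that drives the transgene.

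Library totals were 17955743 to 35637813 estimated counts. Nfkbid averaged 32.7 ± 2.87 CPM (counts in 1000000; SD, n = 6) in controls, 31.6 ± 4.30 (SD, n = 5) in the knockout libraries and 207.9 ± 72.1 (SD, n = 5) in the transgenic libraries. Its log2 fold change against control was 2.67 in the transgenic libraries, whereas no fall was seen in the knockout libraries (0.07, edgeR adjusted p = 0.78). Whether the counted part of the gene lies in the deleted part is not given, so those mice are called knockout-labelled throughout. All controls had mouse identifiers of one prefix and all other mice of another, so a difference from controls and a difference between identifier series cannot be told apart. All 10 markers of CD4+CD8+ thymocytes were present in every group, at summed levels of 5947 to 8836 CPM (controls), 6254 to 7780 CPM (knockout-labelled) and 6033 to 6715 CPM (transgenic). Of these markers, 3 and 8 were lower than in controls, where 10% and 15.6% of all tested genes were lower. In sorted bulk RNA, fewer cells of a type and less RNA per cell cannot be told apart. Knockout-labelled replicate 4, the deepest library, stood apart from the other 4 of its group in many members.

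On the length-scaled unit TPM (transcripts per 1000000), the 84 members together held 13176 ± 382 TPM (SD, n = 6) in controls, 15125 ± 549 (SD, n = 5) in knockout-labelled and 15437 ± 508 (SD, n = 5) in transgenic libraries. The highest control sum was 13749 TPM and the lowest sums of the other groups were 14399 and 14628, so the control range lay below both. The complex V genes held 4566 ± 141 TPM in controls, complex I 3943 ± 133, complex IV 2548 ± 83.5, complex III 1569 ± 37.8 and complex II 549.9 ± 14.04 (all SD, n = 6). Per gene, the median level over all libraries was 276.8 TPM for complex V and 254.4 for complex IV, against 113.8 for complex I, 155.3 for complex II and 157.2 for complex III. The tested members ranged from 3.22 TPM for Atp5s to 685.6 TPM for Atp5b, the catalytic beta subunit of ATP synthase.

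Of the 84 members, 78 had enough counts to be tested, and all 6 that did not were low in each group. These were Ndufa4l2, Cox4i2, Cox6a2, Cox7b2, Cox8b and Cox8c, mostly isoforms known from muscle, lung, testis or hypoxic cells. Cox7b2 and Cox8c had 0 counts in all 16 libraries, which allows up to 0.0842 CPM in the deepest library and 0.167 CPM in the shallowest (3 counts; counting error only). The other 4 summed to 5 counts (Ndufa4l2), 5 counts (Cox8b), 11 counts (Cox4i2) and 43 counts (Cox6a2) over all libraries. Their widely expressed paralogs were far higher in controls: Ndufa4 at 230.6 ± 16.3 TPM, Cox4i1 at 447.4 ± 24.4, Cox6a1 at 289.8 ± 16.2, Cox7b at 152.1 ± 22.5 and Cox8a at 265.7 ± 11.001 TPM (SD, n = 6).

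To set side by side the starts of the 3 genes of the ATP synthase c ring, whose log2 fold changes in knockout-labelled against control were 0.28 to 0.58, and of 2 complex IV genes that rose without overlap, the 200 bases before the RefSeq start (GRCm38.p6) are given; all 5 lie on the minus strand and were chosen after their values were seen. RefSeq promoters were found by symbol for 65 of the 84 members. Capitals mark matches, on either strand, to the NRF1 motif (GCGCA, any base, GCGC), the ETS motif CCGGAAG or the E-box CACGTG.
Atp5g1, chr11:96075632-96075831: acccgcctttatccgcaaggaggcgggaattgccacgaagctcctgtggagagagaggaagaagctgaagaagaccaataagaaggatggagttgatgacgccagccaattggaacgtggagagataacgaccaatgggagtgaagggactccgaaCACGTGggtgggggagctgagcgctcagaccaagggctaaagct
Atp5g2, chr15:102671048-102671247: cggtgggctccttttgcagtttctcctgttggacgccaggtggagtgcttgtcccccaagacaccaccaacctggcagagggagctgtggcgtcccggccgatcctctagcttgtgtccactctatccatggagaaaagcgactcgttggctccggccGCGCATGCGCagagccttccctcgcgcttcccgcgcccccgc
Atp5g3, chr2:73911327-73911526: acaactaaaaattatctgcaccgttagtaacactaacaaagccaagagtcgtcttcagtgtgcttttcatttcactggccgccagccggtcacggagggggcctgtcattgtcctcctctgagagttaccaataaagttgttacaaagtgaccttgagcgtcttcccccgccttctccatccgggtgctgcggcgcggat
Cox8a, chr19:7217617-7217816: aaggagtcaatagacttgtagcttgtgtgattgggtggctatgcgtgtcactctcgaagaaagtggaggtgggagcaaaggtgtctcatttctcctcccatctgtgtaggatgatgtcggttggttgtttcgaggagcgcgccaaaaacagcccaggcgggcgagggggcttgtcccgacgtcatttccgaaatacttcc
Cox6a1, chr5:115348959-115349158: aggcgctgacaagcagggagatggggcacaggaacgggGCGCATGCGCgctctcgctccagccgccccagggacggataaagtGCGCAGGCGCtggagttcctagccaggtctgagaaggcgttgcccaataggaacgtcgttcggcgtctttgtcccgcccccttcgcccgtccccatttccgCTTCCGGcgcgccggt
Cox6a1 had 2 NRF1 matches, ending 152 and 107 bases before the start, and an ETS match ending 9 bases before it. Atp5g2 had an NRF1 match ending 32 bases and Atp5g1 an E-box ending 38 bases before the start. Atp5g3 and Cox8a had none in these 200 bases, though Atp5g3 had an E-box ending 232 bases before its start. In windows of 250 bases, 13 of the 65 members held the NRF1 motif (20%), against 9.54% of the 9860 tested genes with a promoter in the table and 4.23% of all 27025. The ETS motif was in 16.9% of members and 16.3% of tested genes, and the E-box in 7.69% and 9.80%. The 65 members include Cox7b2 and Cox8b, which were not tested and held none of these motifs. Matches describe letters only, and no binding was measured.

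Transcripts of all 5 complexes were higher in both the knockout-labelled and the transgenic thymocytes than in controls, by a median of 1.19-fold and 1.24-fold. In knockout-labelled against control, 62 of the 78 tested members were higher and 0 lower (edgeR adjusted p under 0.05), where 16.4% of all 14933 tested genes were higher and 10% lower. Their median log2 fold change was 0.25, against 0.02 over all tested genes, and 77 of the 78 were above 0. In transgenic against control, 72 of 78 were higher and 0 lower, where 23.0% of all tested genes were higher and 15.6% lower, and the median was 0.31 against 0.03 over all tested genes. These comparisons share the 6 control libraries, so they are not independent of each other.

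The rise was narrow in size. Log2 fold changes of the members lay between -0.22 and 0.58 in knockout-labelled and between -0.05 and 0.63 in transgenic against control, and their median SE was 0.06 in each comparison. A change of more than 1.5-fold was seen for 0 members in the first comparison and for 1, Atp5g1, in the second. In 55 members every knockout-labelled library lay above every control (8.78% of all tested genes did so), and in 63 members every transgenic library did (13.7% of all tested genes). Corrected for GC content and transcript length, the medians fell to 0.17 and 0.18 with 43 and 50 members called, and the calls over all genes changed from 2449 higher and 1493 lower to 1984 and 2056 for knockout-labelled and from 3438 and 2327 to 2481 and 3399 for transgenic. By annotation the members are short, with a median length of 656 bases against 1512.5 for all tested genes. Length and GC content were those of the middle transcript by length among all annotated transcripts of a gene. That transcript need not be the one expressed, and the lengths used were 4660 bases for Atp5g1 and 768 for Atp5b.

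By library, the median over the 78 members of the log2 ratio to the control mean was -0.05 to 0.08 in controls. It was 0.23, 0.23, 0.20, 0.35 and 0.18 in knockout-labelled replicates 1 to 5, and 0.39, 0.34, 0.25, 0.26 and 0.26 in transgenic replicates 1 to 5. All 10 libraries of the 2 changed groups lay above all controls, with knockout-labelled replicate 4 the highest of its group and the female transgenic replicates 1 and 2 the highest of theirs. Among the knockout-labelled libraries, replicate 4 was the highest in 55 of the 78 members. Without it, 53 members were called higher, the median log2 fold change was 0.20 and none was called lower. Of the members in which it lay farthest from its group, the log2 fold changes without it were 0.48 for Atp5g1, 0.44 for Atp5g2, 0.24 for Cox5b, 0.28 for Cox6a1, 0.42 for Cox8a and 0.25 for Uqcr10, all still called by edgeR, and 0.05 for Cox7a2l, which was not.

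**Figure D1:**
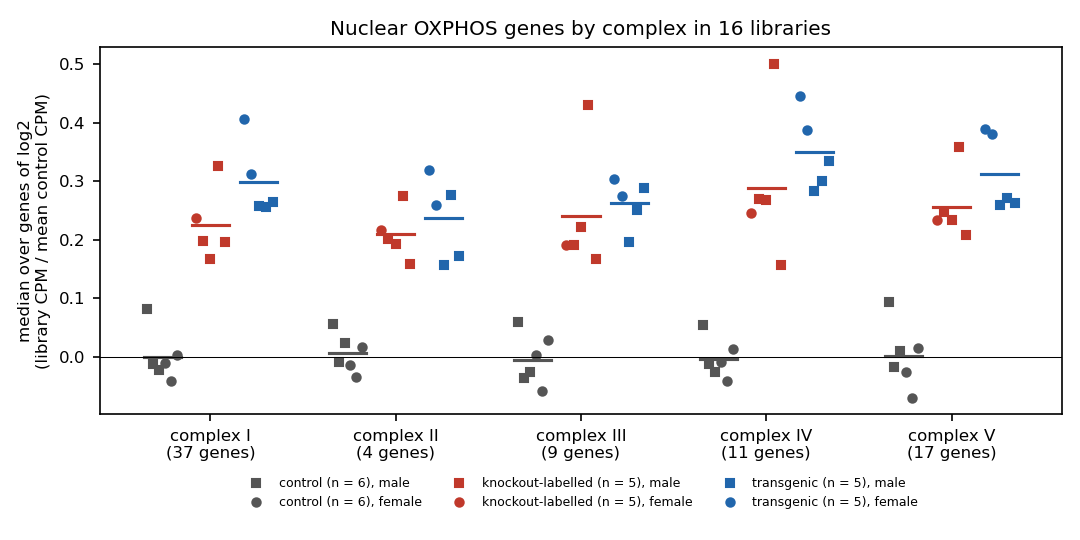
For each complex (x axis), each point is 1 library and gives the median over the tested members of the log2 ratio of its CPM to the control mean (y axis), with bars at the group means, squares for males and circles for females. Controls lie around 0 in every complex and the other groups above them, and knockout-labelled replicate 4 reaches 0.43 in complex III and 0.50 in complex IV.

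Markers of other cell types and states moved with these groups. As the background for the counts below, 16.4% (knockout-labelled) and 23.0% (transgenic) of all tested genes were higher than in controls, and 10% and 15.6% lower. Between transgenic and knockout-labelled libraries, 1.07% were higher and 0.0938% lower. Of 20 proliferation genes, 19 were higher in each comparison with controls (median log2 fold change 0.67 and 0.65), and their summed level was 3198 to 4694 CPM over the controls, 4567 to 6923 CPM over knockout-labelled libraries and 4991 to 6683 CPM over transgenic ones. Knockout-labelled replicate 4 had the highest median proliferation deviation of its group (0.90) and replicate 5 the lowest (0.31), as for the OXPHOS members, and across the transgenic libraries the male replicate 4 was highest (0.86). Of 14 tested immediate-early and stress genes, 9 were lower in knockout-labelled and 8 in transgenic libraries, with sums of 1360 to 1818, 1065 to 1335 and 1071 to 1238 CPM in the 3 groups. Knockout-labelled replicate 5, the lowest of its group in 40 of the 78 OXPHOS members, stood apart in this list with a median deviation of -0.20, against -1.38 to -1.12 in the other 4, and 8 of the 14 were lower without it. B cell markers summed to 7.53 to 23.9 CPM over the controls, 7.89 to 75.8 CPM over knockout-labelled libraries and 45.96 to 96.95 CPM over transgenic ones. In the first comparison 3 of 8 were higher, the class II genes H2-Aa and H2-Ab1 and Cd74, and 2 were lower, Cd79b and Ms4a1. In the second, 7 of 8 were higher. Macrophage and dendritic cell markers summed to 5.66 to 10.8, 4.00 to 13.6 and 17.8 to 23.9 CPM, with 0 and 8 of 10 higher. None of these marker genes was at 0 in all libraries, and their part in the OXPHOS result was not tested. Muscle and fat markers, whose tissues are rich in these complexes, summed to at most 0.427 CPM in any library, with Myh4 at 0 in all. Of 4 tested thymic epithelium and stroma markers and 5 tested erythroid markers, none was called in any of the 3 comparisons by edgeR; the erythroid sum was 7.25 to 130.7, 5.26 to 62.3 and 10.5 to 66.8 CPM in the 3 groups. Type I interferon response genes summed to 154.9 to 690.0, 161.3 to 240.8 and 332.6 to 1334 CPM, with 0 of 9 called in knockout-labelled against control, 3 higher in transgenic against control and 1 higher in transgenic against knockout-labelled.

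**Figure D2:**
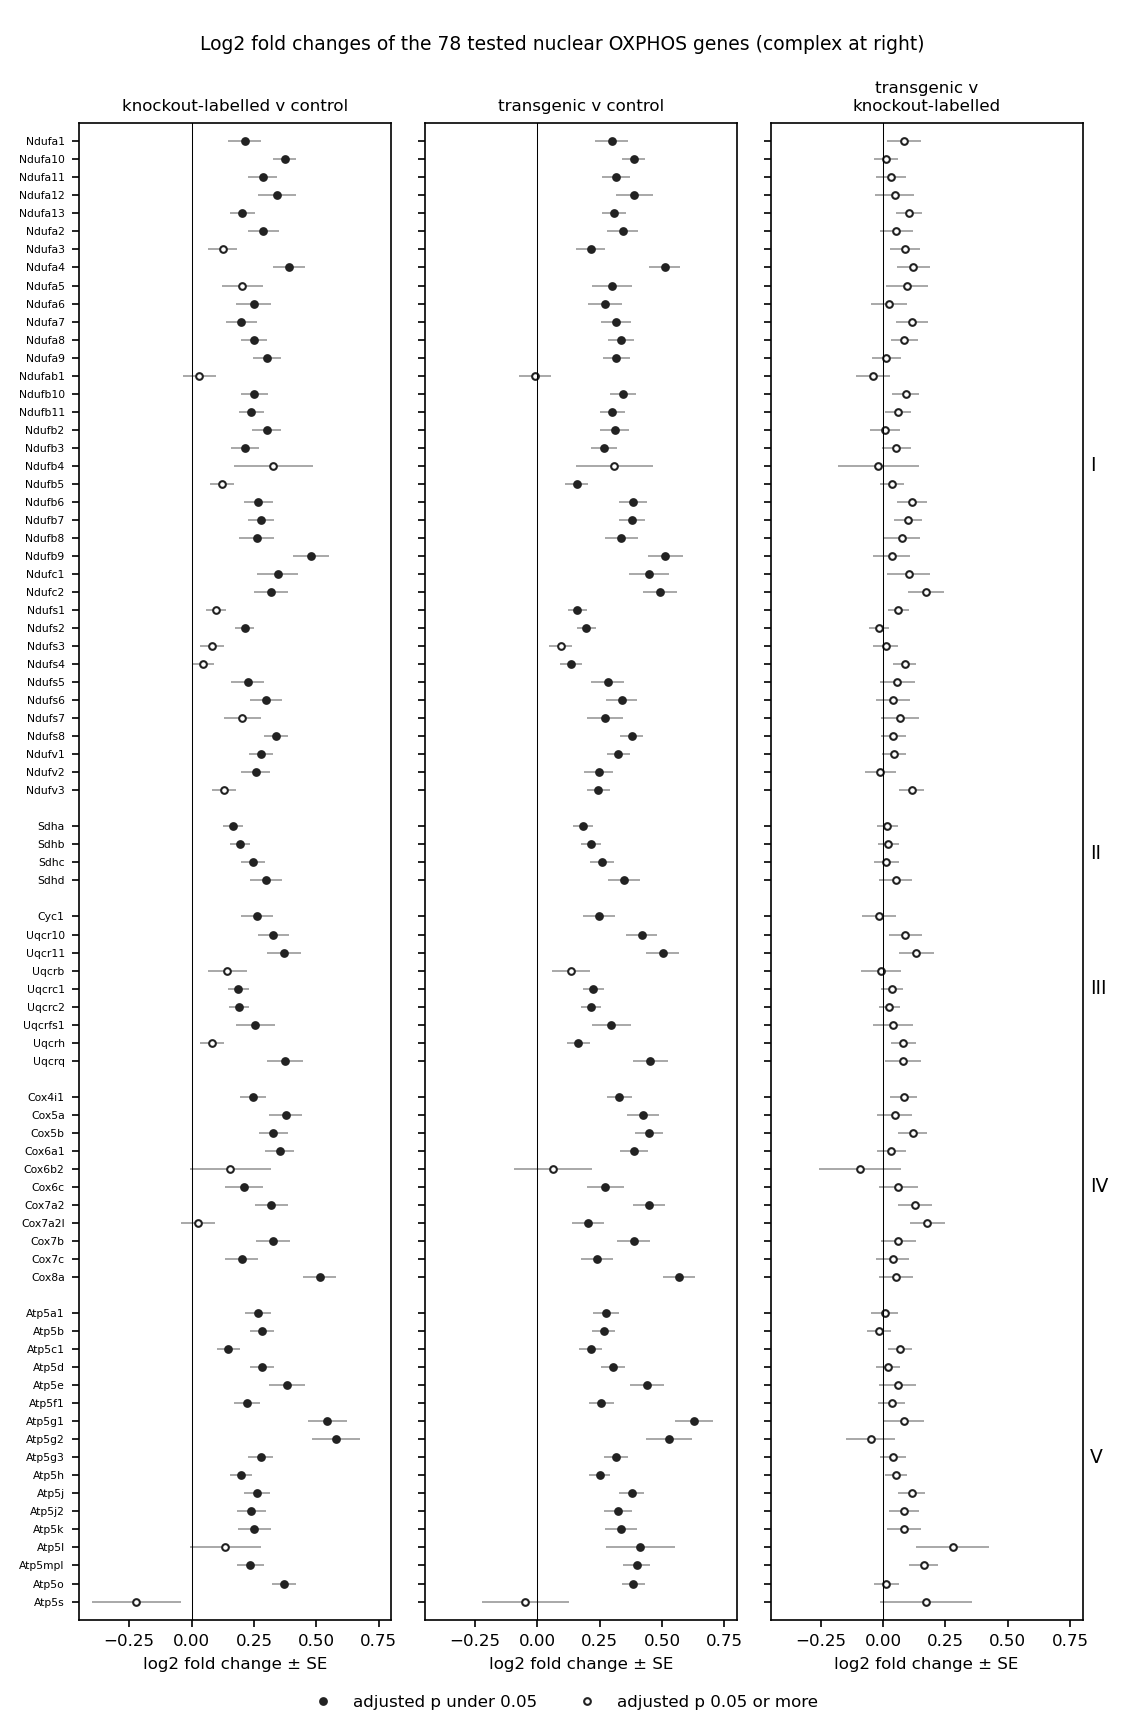
Log2 fold changes (points, x axis) with their SE (lines) are shown for the 78 tested members by complex, filled where the edgeR adjusted p was under 0.05. Nearly all members lie right of 0 in both comparisons with controls (77 and 76 of 78), and no point is filled in the comparison of transgenic with knockout-labelled libraries.

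Complex I, the NADH dehydrogenase, had 27 of 37 tested members higher in knockout-labelled and 34 of 37 in transgenic libraries, with medians of 0.25 and 0.31. Its 7 core subunits, which carry the flavin and most of the iron-sulfur clusters, had 4 and 6 members higher, and the 28 other accessory subunits had 22 and 27. Ndufa10, an accessory subunit (ENSMUSG00000026260, chr1:92439010-92473860), had 45.7, 47.2 and 49.8 CPM as the lowest, median and highest control. It had 59.1, 61.6, 60.3, 66.8 and 57.9 CPM in knockout-labelled replicates 1 to 5 and 62.4, 63.4, 59.7, 65.1 and 59.0 in transgenic replicates 1 to 5. Every library of both groups lay above every control, with log2 fold changes of 0.37 ± 0.05 (SE, edgeR adjusted p = 0.000275) and 0.39 ± 0.05 (edgeR adjusted p = 2.18e-05).

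Ndufs8, a core subunit that binds iron-sulfur clusters, had 33.2, 34.4 and 36.3 CPM as lowest, median and highest control. Its levels were 44.2, 43.0, 44.8, 43.6 and 41.0 CPM in knockout-labelled and 49.0, 47.1, 41.6, 44.9 and 42.2 in transgenic libraries, again without overlap. The log2 fold changes were 0.34 ± 0.05 (edgeR adjusted p = 0.000416) and 0.38 ± 0.05 (edgeR adjusted p = 3.32e-05). Ndufa4, the highest member with a complex I symbol at 273.9 TPM over all libraries, is known to be a subunit of complex IV. It had 50.8, 53.2 and 63.3 CPM in controls, 70.8, 71.5, 70.1, 80.3 and 65.6 in knockout-labelled and 81.7, 82.2, 73.8, 74.2 and 76.8 in transgenic libraries. No library overlapped the controls, the knockout-labelled ones lying between 65.6 and 80.3 CPM, and the log2 fold changes were 0.39 ± 0.06 and 0.51 ± 0.06 (edgeR adjusted p = 0.000721 and 2.8e-05).

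Ndufc2, a membrane-arm subunit, had 32.8, 35.6 and 40.4 CPM in controls, 44.0, 47.9, 45.9, 49.4 and 39.5 in knockout-labelled and 53.6, 55.7, 46.1, 49.8 and 49.3 in transgenic libraries. Only knockout-labelled replicate 5 fell inside the control range, and the log2 fold changes were 0.32 ± 0.07 and 0.49 ± 0.07 (edgeR adjusted p = 0.00369 and 7.81e-05). Ndufb9, another membrane-arm subunit chosen after its values were seen, had the largest fold of the complex in knockout-labelled libraries, 0.48 ± 0.07 (edgeR adjusted p = 0.000497).

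A few complex I genes were called in neither comparison. Ndufab1, the mitochondrial acyl carrier protein, which also serves fatty acid and iron-sulfur cluster synthesis, had 26.4, 29.5 and 32.2 CPM in controls, 30.1, 31.6, 30.5, 31.8 and 26.8 in knockout-labelled and 27.5, 33.0, 28.5, 27.9 and 29.5 in transgenic libraries. The groups overlapped throughout, and the log2 fold changes were 0.03 ± 0.07 and -0.01 ± 0.06 (edgeR adjusted p = 0.767 and 0.918), of a sign that changed with the setting. Ndufs3, a core subunit, had 47.3, 54.0 and 55.7 CPM in controls, 54.1, 57.7, 54.2, 59.0 and 58.5 in knockout-labelled and 59.0, 57.4, 55.6, 58.9 and 53.2 in transgenic libraries. Its log2 fold changes were 0.08 ± 0.05 and 0.09 ± 0.05 (edgeR adjusted p = 0.233 and 0.134), both below 0 after the correction for GC content and length (-0.03 and -0.07). Ndufb4, an accessory subunit with fractional counts in all 16 libraries, had 2.83, 3.16 and 4.27 CPM in controls, 3.86, 3.19, 4.95, 4.74 and 3.36 in knockout-labelled and 4.78, 4.92, 3.69, 3.03 and 4.33 in transgenic libraries. It was low and the groups overlapped, with log2 fold changes of 0.33 ± 0.16 and 0.31 ± 0.15 (edgeR adjusted p = 0.137 and 0.121).

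Ndufa3, Ndufa5, Ndufb5, Ndufs1, Ndufs4, Ndufs7 and Ndufv3, named after their values were seen except Ndufv3, were not called in knockout-labelled libraries (log2 fold changes 0.12, 0.20, 0.12, 0.10, 0.05, 0.20 and 0.13) and were called in transgenic ones (0.21, 0.30, 0.16, 0.16, 0.13, 0.27 and 0.24). None of these 7 was called between transgenic and knockout-labelled libraries (smallest edgeR adjusted p = 0.446, for Ndufv3).

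Complex II, succinate dehydrogenase, which links the respiratory chain to the citric acid cycle, had all 4 members higher in both groups. Sdhd, a membrane anchor, had 42.7, 49.7 and 52.2 CPM in controls, 58.4, 61.6, 57.1, 67.8 and 56.8 in knockout-labelled and 63.9, 67.2, 59.4, 64.6 and 56.7 in transgenic libraries. No library overlapped the controls, and the log2 fold changes were 0.30 ± 0.06 and 0.35 ± 0.06 (edgeR adjusted p = 0.00333 and 0.000489). Sdhc, the other anchor and the highest of the complex at 188.4 TPM over all libraries, had 59.3, 63.7 and 69.7 CPM in controls, 79.1, 77.1, 74.0, 77.5 and 71.6 in knockout-labelled and 80.2, 77.2, 70.5, 78.3 and 76.6 in transgenic libraries. It rose without overlap, by 0.25 ± 0.05 and 0.26 ± 0.05 on the log2 scale (edgeR adjusted p = 0.00221 and 0.000619). Sdhb, the iron-sulfur subunit, had 79.3, 82.1 and 83.96 CPM in controls, 92.8, 89.9, 91.6, 99.1 and 89.7 in knockout-labelled and 101.7, 97.3, 92.5, 94.3 and 87.9 in transgenic libraries. All libraries of both groups exceeded all controls, and Sdhb rose by 0.19 ± 0.04 and 0.22 ± 0.04 (edgeR adjusted p = 0.00328 and 0.000697). The flavoprotein Sdha, named after its values were seen, rose by 0.17 ± 0.04 and 0.18 ± 0.04 (edgeR adjusted p = 0.00728 and 0.00181).

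Complex III, the cytochrome bc1 complex, had 7 of 9 members higher in knockout-labelled and 8 of 9 in transgenic libraries, with medians of 0.26 and 0.25. Uqcr11, a small subunit, had 20.6, 22.5 and 24.7 CPM in controls, 27.7, 27.0, 29.0, 32.5 and 28.0 in knockout-labelled and 34.9, 33.8, 29.4, 31.1 and 29.8 in transgenic libraries. Both groups lay above all controls, with log2 fold changes of 0.37 ± 0.07 and 0.50 ± 0.07 (edgeR adjusted p = 0.00132 and 4.89e-05). Uqcr10, another small subunit, had 32.8, 33.8 and 37.3 CPM in controls, 41.7, 40.4, 42.4, 48.4 and 40.4 in knockout-labelled and 50.8, 48.1, 42.7, 45.002 and 42.4 in transgenic libraries. It also had no overlap and rose by 0.33 ± 0.06 and 0.42 ± 0.06 (edgeR adjusted p = 0.00172 and 0.00011). Of the redox centres, Cyc1, cytochrome c1, rose by 0.26 ± 0.07 and 0.25 ± 0.06, and Uqcrfs1, the Rieske iron-sulfur protein, by 0.26 ± 0.08 and 0.30 ± 0.08. This pair was named after the values were seen.

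Uqcrh, the hinge protein beside cytochrome c1 and the highest complex III member at 460.4 TPM, had 119.0, 123.6 and 140.4 CPM in controls, 134.7, 123.7, 128.7, 134.0 and 132.0 in knockout-labelled and 147.0, 151.9, 134.7, 140.2 and 126.8 in transgenic libraries. The groups overlapped, and its log2 fold changes were 0.08 ± 0.05 (edgeR adjusted p = 0.22) and 0.16 ± 0.05 (edgeR adjusted p = 0.0112). Uqcrb, a subunit on the matrix side, had 36.3, 38.3 and 41.3 CPM in controls, 41.3, 43.6, 42.1, 47.6 and 36.8 in knockout-labelled and 40.2, 49.98, 40.3, 43.5 and 37.0 in transgenic libraries. Its groups overlapped and it was called in neither comparison, at 0.14 ± 0.08 and 0.14 ± 0.07 (edgeR adjusted p = 0.182 and 0.164).

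Complex IV, cytochrome c oxidase, had 9 of 11 tested members higher in knockout-labelled and 10 of 11 in transgenic libraries, with medians of 0.32 and 0.39. All 9 tested members other than Cox6b2 and Cox7a2l rose in both. Cox8a, a small membrane subunit (ENSMUSG00000035885, chr19:7215153-7217616) whose start is printed above, had 70.4, 72.3 and 78.03 CPM in controls, 99.4, 94.9, 100.6, 124.2 and 99.0 in knockout-labelled and 118.4, 106.8, 98.9, 107.5 and 107.3 in transgenic libraries. Every library of both groups lay above the highest control, and the log2 fold changes were 0.51 ± 0.07 (edgeR adjusted p = 0.000288) and 0.57 ± 0.06 (edgeR adjusted p = 1.81e-05).

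Cox5b, a zinc-binding subunit on the matrix side, had 64.0, 69.6 and 71.3 CPM in controls, 84.6, 84.3, 81.0, 99.1 and 80.0 in knockout-labelled and 93.5, 98.5, 88.4, 95.1 and 91.8 in transgenic libraries. No library overlapped the controls, and it rose by 0.33 ± 0.06 and 0.45 ± 0.06 (edgeR adjusted p = 0.000987 and 3.15e-05). Cox6a1, with the NRF1 and ETS matches shown above, had 78.8, 84.005 and 88.1 CPM in controls, 103.9, 101.5, 105.2, 120.9 and 106.8 in knockout-labelled and 122.4, 108.5, 99.3, 108.0 and 113.0 in transgenic libraries. It rose without overlap, by 0.35 ± 0.06 and 0.39 ± 0.06 (edgeR adjusted p = 0.000721 and 0.000105).

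Cox4i1, the largest nuclear subunit and the highest of the complex at 485.3 TPM, had 159.4, 169.7 and 175.2 CPM in controls, 200.01, 194.2, 190.7, 212.3 and 184.8 in knockout-labelled and 239.5, 220.4, 194.3, 198.0 and 202.4 in transgenic libraries. Both groups lay above all controls, with a rise of 0.25 ± 0.05 and 0.33 ± 0.05 (edgeR adjusted p = 0.00284 and 0.000147). Cox7a2, a small membrane subunit, had 59.1, 62.5 and 70.1 CPM in controls, 77.5, 78.4, 75.8, 91.5 and 70.2 in knockout-labelled and 90.3, 91.6, 82.7, 82.3 and 82.8 in transgenic libraries. Each library of both groups was above the highest control, and Cox7a2 rose by 0.32 ± 0.07 and 0.45 ± 0.06 (edgeR adjusted p = 0.00239 and 8.81e-05). Cox7b, a further small membrane subunit, had 50.02, 53.6 and 61.5 CPM in controls, 69.5, 64.3, 65.3, 75.9 and 61.8 in knockout-labelled and 75.3, 77.4, 65.8, 66.6 and 68.1 in transgenic libraries. It rose by 0.33 ± 0.07 and 0.39 ± 0.07 (edgeR adjusted p = 0.00267 and 0.000329).

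Cox7a2l is related to Cox7a2 but is known as a factor that joins complexes III and IV into supercomplexes. It had 140.1, 152.5 and 172.5 CPM in controls, 163.5, 159.4, 153.5, 128.0 and 154.9 in knockout-labelled and 191.3, 198.6, 164.7, 163.5 and 158.8 in transgenic libraries. Knockout-labelled replicate 4, the highest of its group for most members, was the lowest of all 16 libraries here. The log2 fold changes were 0.03 ± 0.07 (edgeR adjusted p = 0.803), of a sign that changed with the setting, and 0.20 ± 0.06 (edgeR adjusted p = 0.0198), and the transgenic libraries differed from the knockout-labelled ones by 0.18 ± 0.07 (edgeR adjusted p = 0.345). Its counts were fractional, as estimates are where reads match more than 1 transcript or locus, in all 16 libraries. Cox6b2, an isoform known from testis, had 3.21, 3.96 and 5.29 CPM in controls, 4.32, 5.19, 5.67, 4.00 and 3.15 in knockout-labelled and 4.58, 5.23, 3.34, 4.73 and 3.95 in transgenic libraries. It was low and overlapped throughout, with log2 fold changes of 0.16 ± 0.16 and 0.06 ± 0.16 (edgeR adjusted p = 0.504 and 0.78).

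**Figure D3:**
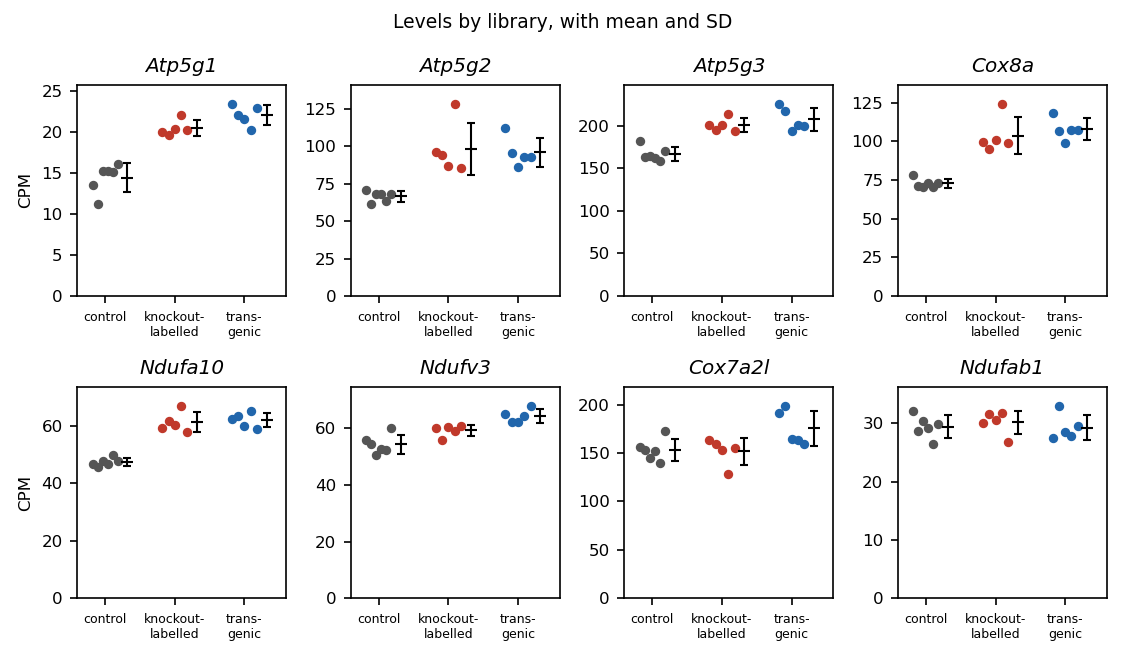
CPM (y axis, from 0) of 8 members is shown for each library (points) by group, with the mean and SD at the right of each group. In the c ring genes Atp5g1, Atp5g2 and Atp5g3, in Cox8a and in Ndufa10 both changed groups lie above the controls, whereas Ndufab1 overlaps throughout and Cox7a2l is lowest in knockout-labelled replicate 4.

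Complex V, the ATP synthase, had 15 of 17 members higher in knockout-labelled and 16 of 17 in transgenic libraries, with medians of 0.26 and 0.32. The proton-carrying c ring is built from one mature protein that is encoded by 3 genes, Atp5g1, Atp5g2 and Atp5g3, which differ in their import sequences. Atp5g1 (ENSMUSG00000006057, chr11:96068852-96075670) had 11.2, 15.1 and 16.1 CPM in controls, 19.9, 19.7, 20.3, 22.1 and 20.2 in knockout-labelled and 23.4, 22.1, 21.5, 20.2 and 22.9 in transgenic libraries. Every library of both groups lay above the controls, by 0.54 ± 0.08 (edgeR adjusted p = 0.000416) and 0.63 ± 0.08 (edgeR adjusted p = 2.69e-05) on the log2 scale.

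Atp5g2 (ENSMUSG00000062683, chr15:102662864-102672352) had 61.5, 68.2 and 70.6 CPM in controls, 96.4, 94.3, 86.6, 128.4 and 85.2 in knockout-labelled and 112.2, 95.3, 86.2, 92.9 and 92.8 in transgenic libraries. It too had no overlap, with log2 fold changes of 0.58 ± 0.10 (edgeR adjusted p = 0.000818) and 0.53 ± 0.09 (edgeR adjusted p = 0.000434). Atp5g3 (ENSMUSG00000018770, chr2:73908447-73911326) had 158.4, 164.0 and 182.0 CPM in controls, 200.6, 195.1, 200.5, 213.7 and 194.0 in knockout-labelled and 225.7, 217.2, 193.3, 201.2 and 199.8 in transgenic libraries, and rose by 0.28 ± 0.05 and 0.32 ± 0.05 (edgeR adjusted p = 0.0013 and 0.000164). On the TPM scale Atp5g3 was the most abundant of the 3 in controls (431.7 ± 18.2), before Atp5g2 (240.5 ± 10.96) and Atp5g1 (39.96 ± 4.27). Counts of Atp5g1 and Atp5g2 were fractional in all 16 libraries and those of Atp5g3 in none, so values of the first pair are uncertain. Fractional counts were not particular to this pair: of the 78 tested members, 40 had them in 1 or more libraries and 23 in all 16.

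The catalytic head and its central stalk (Atp5a1, Atp5b, Atp5c1, Atp5d and Atp5e) had 5 of 5 members higher in both groups. Atp5b had 628.8, 650.9 and 692.2 CPM in controls, 812.9, 768.2, 791.7, 873.2 and 759.6 in knockout-labelled and 813.4, 805.4, 748.0, 796.6 and 794.1 in transgenic libraries. All libraries of both groups exceeded all controls, and the log2 fold changes were 0.28 ± 0.05 and 0.27 ± 0.05 (edgeR adjusted p = 0.000877 and 0.000409). The peripheral stalk (Atp5f1, Atp5h, Atp5j and Atp5o) had 4 of 4 higher. Atp5o, the subunit that ties the stalk to the head, had 75.9, 81.8 and 84.9 CPM in controls, 106.4, 104.9, 101.6, 111.0 and 99.5 in knockout-labelled and 113.9, 109.7, 98.3, 103.2 and 105.5 in transgenic libraries, a rise of 0.37 ± 0.05 and 0.39 ± 0.05 (edgeR adjusted p = 0.000288 and 2.8e-05). Atp5j, another stalk subunit, had 73.8, 78.8 and 84.8 CPM in controls, 93.6, 97.5, 100.7, 104.3 and 86.8 in knockout-labelled and 96.5, 110.8, 105.8, 103.8 and 101.8 in transgenic libraries. It rose without overlap, by 0.26 ± 0.05 and 0.38 ± 0.05 (edgeR adjusted p = 0.0021 and 6.26e-05).

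Of the small membrane subunits (Atp5j2, Atp5k, Atp5l and Atp5mpl), 3 of 4 were higher in knockout-labelled and 4 of 4 in transgenic libraries. Atp5mpl had 36.2, 37.6 and 40.8 CPM in controls, 45.5, 46.5, 44.7, 43.4 and 42.1 in knockout-labelled and 49.9, 56.1, 48.6, 50.5 and 44.7 in transgenic libraries. All libraries of both groups lay above the controls, and it rose by 0.24 ± 0.06 and 0.40 ± 0.05 (edgeR adjusted p = 0.00551 and 6.55e-05). Atp5l, chosen after its values were seen, was spread most widely: 32.1, 31.9, 30.0, 35.8 and 26.03 CPM in knockout-labelled and 32.3, 53.2, 40.8, 32.9 and 30.3 in transgenic libraries, with transgenic replicate 2 far above the rest. Its log2 fold changes were 0.13 ± 0.14 (edgeR adjusted p = 0.516) and 0.41 ± 0.14 (edgeR adjusted p = 0.0281), and its counts were fractional in all libraries. Atp5s, coupling factor B, was the lowest tested member, with 1.98, 3.16 and 3.80 CPM in controls, 2.76, 3.06, 2.61, 2.36 and 2.02 in knockout-labelled and 2.63, 3.51, 3.12, 2.34 and 2.81 in transgenic libraries. Its groups overlapped, and it was the one member with a log2 fold change below 0 in knockout-labelled libraries (-0.22 ± 0.18, edgeR adjusted p = 0.38), with -0.05 ± 0.17 in transgenic ones (edgeR adjusted p = 0.847).

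The transgenic and knockout-labelled libraries, which lie within one identifier series, had no member called between them. With edgeR, 0 of 78 passed, where 1.07% of all tested genes were higher and 0.0938% lower, and 5 had an unadjusted p under 0.05. DESeq2 called 0 and had 4 under an unadjusted 0.05. The median log2 fold change was 0.05, with 69 of 78 above 0, and the members ranged from -0.09 to 0.28. The median SE was 0.06, and in 11 members the upper bound (the estimate plus 2 SE) reached 0.25, the median size seen against controls. Ndufv3, a small accessory subunit of complex I, had 50.7, 53.7 and 60.0 CPM in controls, 60.2, 55.9, 60.7, 59.2 and 60.7 in knockout-labelled and 65.2, 62.3, 62.1, 64.3 and 67.9 in transgenic libraries. It was the one member in which every transgenic library lay above every knockout-labelled one, where 2.33% of all tested genes did so. Its log2 fold change was 0.12 ± 0.05 (edgeR adjusted p = 0.446). With males only, the median was -0.01.

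Between the sexes, 0 members were called by edgeR (0.141% of all tested genes were) and by DESeq2, with 2 at an unadjusted p under 0.05 with each tool. By edgeR these were Uqcrh and Cox7a2l, with log2 fold changes of males over females of -0.09 ± 0.04 and -0.14 ± 0.06 (edgeR adjusted p = 0.442 and 0.419). The transgenic females deviated by 0.39 and 0.34 and the transgenic males by 0.25 to 0.26, while control females lay between -0.05 and 0.01 and control males between -0.02 and 0.08. The test of that difference, an interaction of sex and genotype on control and transgenic libraries, called 0 members (0.026% of 15382 tested genes), with 16 at an unadjusted p under 0.05 and 13 by DESeq2. The median interaction was -0.14 (transgenic effect in males minus that in females), and the smallest p belonged to Ndufc2 (-0.33 ± 0.09, edgeR adjusted p = 0.232). In males alone, 37 members were called higher in transgenic against control, with a median of 0.23, and 46 in knockout-labelled against control, also with 0.23.

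The 13 subunits encoded in mitochondrial DNA, which assemble with the nuclear ones, had 0 called in either direction by edgeR in each comparison with controls, and 0 with an unadjusted p under 0.05. Their median log2 fold changes were -0.02 and 0.05, ranging from -0.94 to 0.16 and from -0.10 to 0.27. Their summed level was 10911 to 14605 CPM (controls), 10262 to 14127 CPM (knockout-labelled) and 10240 to 18584 CPM (transgenic). The ranges overlapped, but transgenic replicate 2 stood apart, with a median deviation of 0.58 against -0.19 to 0.24 in controls. Transgenic replicate 3 (0.27), transgenic replicate 5 (-0.28) and knockout-labelled replicate 5 (-0.39) also lay outside the control range. With transgenic replicate 2 left out, edgeR called 2 of the 13 lower in knockout-labelled against control (mt-Atp6 and mt-Atp8) and 1 lower in transgenic against control (mt-Co2). In that fit 3 and 5 had an unadjusted p under 0.05, and the medians were -0.09 and -0.18. Without transgenic replicate 1 none was called in either comparison, and the second median was 0.22. SEs were wide (0.11 to 0.57 and 0.10 to 0.58), and 7 and 10 of the 13 lay within 2 SE of the nuclear members' median. The difference between the nuclear and the mitochondrial genes was not tested.

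**Figure D4:**
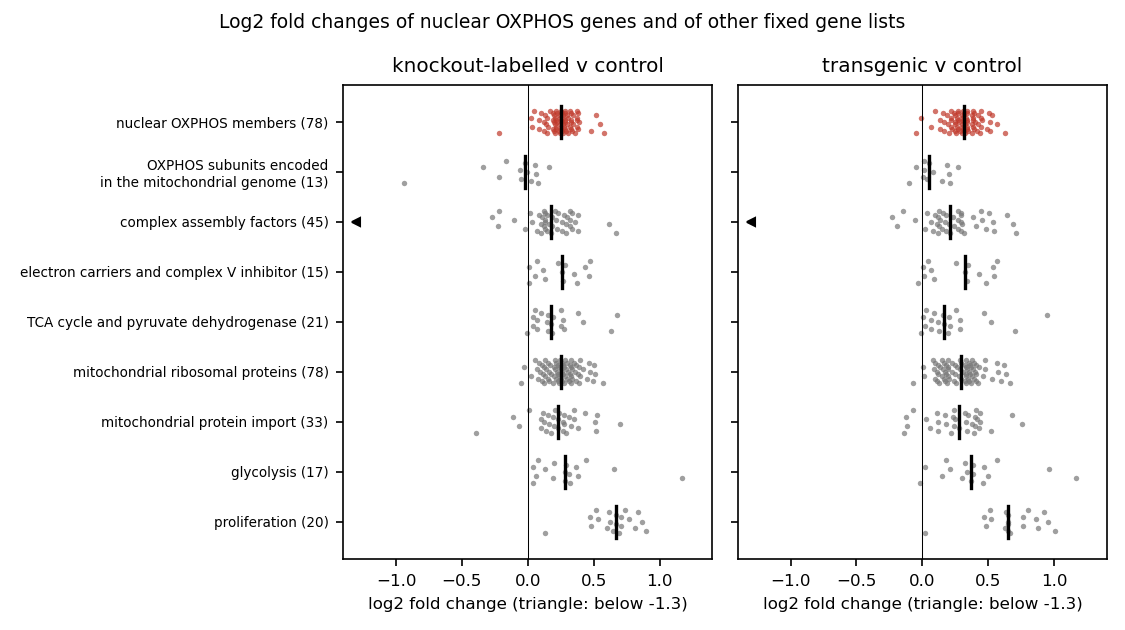
Log2 fold changes (x axis) against controls are shown for each tested gene (points) of the nuclear OXPHOS members and 8 other lists, with the list size in brackets and a bar at the median. Nuclear OXPHOS genes (0.25 and 0.31) and mitochondrial ribosomal proteins (0.25 and 0.29) lie right of 0, mitochondrially encoded subunits around 0 (-0.02 and 0.05), and triangles stand for Pet117 below the axis.

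Most other nuclear lists, chosen with earlier results known, also held many higher and few lower genes. The rise was thus not limited to the OXPHOS members. Among all tested genes, 16.4% (knockout-labelled) and 23.0% (transgenic) were higher than in controls, and 10% and 15.6% lower. Of 45 assembly factors, 15 were higher and 3 lower in knockout-labelled, and 21 higher and 2 lower in transgenic libraries (medians 0.18 and 0.21). Cox17, a copper carrier for complex IV, rose by 0.38 ± 0.05 and 0.45 ± 0.05, Uqcc2, a complex III assembly factor, by 0.61 ± 0.10 and 0.69 ± 0.10, and Surf1, for complex IV, by 0.23 ± 0.06 and 0.39 ± 0.05. The genes that fell were named after their values were seen. Ttc19, for complex III, had log2 fold changes of -0.23 ± 0.07 in both groups, and Acad9, for complex I, -0.22 ± 0.06 and -0.15 ± 0.06. Pet117 was the other, at 0 in all 5 knockout-labelled libraries and at 0 to 1.31 CPM in controls.

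Electron carriers and the complex V inhibitor had 7 and 9 of 15 tested genes higher (medians 0.26 and 0.33), among them Etfb and Etfa, which bring in electrons from fatty acid oxidation (0.47 ± 0.07 and 0.37 ± 0.06 in knockout-labelled, 0.54 ± 0.07 and 0.48 ± 0.06 in transgenic), and Coq2 of ubiquinone synthesis (0.35 ± 0.06 and 0.54 ± 0.06). The citric acid cycle list had 11 of 21 higher in both (medians 0.18 and 0.16), with Idh3g at 0.25 ± 0.04 and 0.26 ± 0.04. Mitochondrial ribosomal proteins, which translate the mitochondrial mRNAs, had 53 and 61 of 78 higher and 0 lower (medians 0.25 and 0.29), with Mrpl54 at 0.49 ± 0.07 and 0.60 ± 0.06. Protein import had 21 and 24 of 33 higher, with 1 lower in transgenic libraries, Timm29 (-0.14 ± 0.04), named after its value was seen. Mitochondrial dynamics and outer membrane genes had 10 of 15 higher in both and 0 lower (medians 0.25 and 0.26), with Immt, which shapes the cristae, at 0.29 ± 0.05 and 0.31 ± 0.05. Glycolysis genes had 9 and 15 of 17 higher.

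Of 21 tested regulators of mitochondrial genes, 6 were higher in each comparison, with 1 and 3 lower and medians of -0.01 and 0.04. Of all tested genes 16.4% and 23.0% were higher and 10% and 15.6% lower, so the list was near that background in the transgenic comparison. Nrf1, the factor of the NRF1 motif, had log2 fold changes of -0.01 ± 0.04 and -0.06 ± 0.04 (edgeR adjusted p = 0.818 and 0.201), and Gabpa, an ETS factor known for respiratory genes, -0.07 ± 0.05 and -0.06 ± 0.05 (edgeR adjusted p = 0.297 and 0.349). Tfam, which packages and transcribes mitochondrial DNA, rose by 0.24 ± 0.06 and 0.26 ± 0.06, and Myc, an E-box factor, by 1.57 ± 0.26 and 1.5 ± 0.26. Lrpprc, which stabilises mitochondrial mRNAs, rose by 0.29 ± 0.05 in both. Esrra, a nuclear receptor known to activate respiratory genes, fell by 0.26 and 0.30, Polg and Ppargc1b fell in transgenic libraries by 0.20 and 0.31, and Ppargc1a had 0 counts in all 16 libraries. Nrf1, Gabpa, Tfam, Polg and the Ppargc1 genes were named after their values were seen.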

How the data were processed

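The authors' deposited files hold, for each of the 16 libraries, an estimated count and a TPM value for 46517 gene identifiers. Bowtie 1.0.0, SAMtools 0.1.18, edgeR 3.24.3 and the builds GRCm38 and mm10 are named in the submitters' processing notes; the counting program was not named in any of them. Among estimated counts greater than 0, 58.7% were whole within 1e-06, and the others were fractional. The deposited TPM values summed to 1000000 per library and were used to compare levels between genes, in no test. Symbols, biotypes, lengths and positions were taken from GENCODE for GRCm38. It named 46005 identifiers, and the other 512 held 0.171% of the counts.

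Estimated counts were rounded and fitted with edgeR 4.0.16 in R 4.3.3: filter on expression by group, TMM scaling, and a robust quasi-likelihood model of group and sex over all 16 libraries (12 residual degrees of freedom). Adjusted p-values are two-sided, by Benjamini-Hochberg over the 14933 tested genes, and called means under 0.05. CPM uses TMM-scaled library sizes, and the SE is the log2 fold change over the square root of F. The fit was tested on simulated data. Replicates are separate mice by their identifiers, so p-values measure the spread between mice. Libraries of a group differed by more than sampling noise (chi-square per degree of freedom 4.56 to 80.1).

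Alternatives were DESeq2 1.42.0, RLE size factors, library totals, no filter, no sex term, males only, a replicate block, a correction for GC content and length, both together, and leaving out each library. Added after seeing the data were fits without libraries high in class II or interferon transcripts. The members and lists were chosen with earlier results of these data known. Values by library (for the 6 controls the lowest, median and highest) are given for the member with the highest mean TPM of each complex, the 2 members of each complex with the smallest p in each of the 3 group comparisons, any member called lower, and paralog families. Members not called are named where there are 15 or fewer. Of each other list the 2 genes with the smallest p were meant to be named. In several lists, among them protein import, glycolysis and proliferation, they are not all named.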

Additional observations from a re-analysis of the deposited data

Results flagged for a closer look

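In 14 of 111 groups of 5 or 6 libraries, a single library lay far from the others of its group. The gap to its neighbour took up over 0.710 of the range with 5 libraries, or over 0.625 with 6. Chance marks about 1 in 20 independent groups. These groups reuse the same 16 libraries over related genes, so the 14 flags cannot be set against that share. Most were knockout-labelled replicate 4, which was the highest of its group in Atp5g1 (22.1 CPM), Atp5g2 (128.4 CPM), Cox5b (99.1 CPM), Cox6a1 (120.9 CPM), Cox8a (124.2 CPM) and Uqcr10 (48.4 CPM), and in the median deviation of complex III (0.43) and complex V (0.36). In Cox7a2l the same library was the lowest, at 128.0 CPM. Without it the knockout-labelled comparison called 53 members. Among the controls, replicate 1 was the highest in Ndufa4 (63.3 CPM) and in the median of complex I (0.082), replicate 6 was the lowest in Ndufs3 (47.3 CPM) and the highest in Uqcrh (140.4 CPM), and replicate 5 was the lowest in Sdhd (42.7 CPM).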

How the results depend on the processing

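No member was called lower in any group comparison with controls under any setting run, and none was called between transgenic and knockout-labelled libraries. Against controls, 24 members in knockout-labelled and 33 in transgenic libraries were called higher under all 28 settings. Leaving out each library in turn gave 53 to 61 members in the first comparison (fewest without knockout-labelled replicate 4) and 65 to 72 in the second. The counts moved most to 36 members of knockout-labelled with the replicate block and the GC content and length correction together. In transgenic they moved most to 37 members in males only, where fewer libraries were used and the median log2 fold change was 0.23 rather than 0.31. The cause of either drop was not tested. The 2 added fits gave 45 (without high class II libraries) and 48 (without high interferon libraries) members in knockout-labelled, and 72 and 64 in transgenic. The class II fit left out control replicate 1 and knockout-labelled replicates 1, 2 and 3. Its 45 calls thus rest on knockout-labelled replicates 4 and 5 alone, with a median of 0.33, and replicate 4 was the highest of its group for most members. The interferon fit left out control replicate 2 and transgenic replicates 3 and 5.

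The deviations of same-numbered libraries of different groups correlated by -0.18 to 0.25, with 5 of 15 pairs over 0.1. Differently numbered libraries were not compared, so these values do not tell whether replicate numbers pair the mice. With the number as a block, 60 and 71 members were called against controls and 0 between transgenic and knockout-labelled. Over all genes, calls moved to 1438 (without high class II libraries) and 2289 (without high interferon libraries) in knockout-labelled against control, to 3160 in transgenic against control in males only, and in transgenic against knockout-labelled to 278 without a filter, 106 in males only and 342 with DESeq2. The ratio of a complex's median level to the median of all tested members, taken in each library and averaged over the 16, went from 1.02 on TPM to 1.13 on CPM per annotated length for complex III and from 1.77 to 1.68 for complex V.

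Signs changed only where a change was not called. Nfkbid in knockout-labelled was -0.048 without the sex term and -0.047 with block and GC correction, and -0.053 to 0.14 with each library left out. In knockout-labelled against control, Cox7a2l was -0.013 without the sex term, -0.031 in males, -0.058 with GC correction, -0.048 with block and GC correction and -0.013 without high class II libraries (-0.023 to 0.045 with each library left out). Ndufab1 was -0.015 in males, -0.039 with GC correction, -0.033 with block and GC correction and -0.0045 without high interferon libraries (-0.016 to 0.055). Ndufs3 was -0.035 and -0.059 and Uqcrh -0.027 and -0.0085 with GC correction and with block and GC correction, and Cox6b2 was -0.13 without high class II libraries. In transgenic against control, Cox6b2 was -0.079 and -0.043 and Ndufs3 -0.070 and -0.10 with the same corrections, and Ndufab1 was 0.022 without high class II libraries. Leaving out each library gave -0.18 to 0.047 for Atp5s, -0.030 to 0.13 for Cox6b2 and -0.10 to 0.014 for Ndufab1. In transgenic against knockout-labelled, Sdhb was -0.036 in males, -0.0058 with GC correction, -0.011 with block and GC correction and -0.025 without high class II libraries, and Sdhd -0.035 in males and -0.0090 without high class II libraries. The cause of these shifts was not tested.

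Ndufb4, Cox6b2 and Atp5s, at 3.40, 4.27 and 2.99 CPM in controls, had SEs of 0.16, 0.16 and 0.18 in knockout-labelled against control, against a median of 0.06 over the members. Atp5l, at 28.5 CPM, had an SE of 0.14, so low depth was not common to all members with wide SEs.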
